A study of Mus musculus with 8 samples.

Results

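The genes that encode the insulin and insulin-like growth factor (IGF) receptors, their substrates and the adaptors and inhibitors bound to them were followed in mouse 3T3-L1 adipocytes. The group was defined by name as 9 genes, which the table would list in capitals as INSR, IGF1R, IGF2R, IRS1, IRS2, GRB10, GRB14, SHC1 and PTPN1. They are written below in the mouse style (Insr, Igf1r and so on), and 8 of them stood among the 10663 genes of the deposited table. Grb10, which encodes an adaptor that dampens receptor signalling, was not among the listed genes and was not analysed here. 3T3-L1, an established mouse fibroblast line, can be differentiated to adipocytes in the dish, and all libraries came from cells labelled as adipocytes at passage 2-3. The study compared 4 control libraries with 4 libraries labelled miR-690oe, for overexpression of the mouse microRNA miR-690. The labels give the same treatment, a miR-690 mimic at 5 pM, for all 8 libraries, so what the control cells received remains unknown here. The labels do not state whether separate cultures lie behind the libraries of a group. The p-values therefore measure the spread between these libraries alone, and that spread may be technical.

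Insulin binds the insulin receptor, a tyrosine kinase of the cell surface, and the activated receptor phosphorylates docking proteins called insulin receptor substrates. These recruit phosphoinositide 3-kinase, and the signal runs on through Akt to glucose uptake, lipid storage and the restraint of lipolysis, for which fat cells are a main target. The IGF1 receptor is a close relative of the insulin receptor and forms hybrids with it, whereas the IGF2 receptor has no kinase and carries IGF2 and lysosomal enzymes into the cell. Shc1 links the receptors to the Ras and ERK branch, Grb14 blocks the receptor kinase, and Ptpn1 removes phosphate from the receptors and substrates. All values are gene totals and do not separate splice forms, such as the isoforms of the insulin receptor.

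The library totals ran from 29773446 to 38235522 reads over the listed genes, and every member had at least 500 reads in every library. All 13 adipocyte markers were listed. Their summed level was 12821 to 14282 CPM (reads scaled so that the listed genes of a library sum to 1000000) in controls and 11126 to 14497 CPM in miR-690oe. Of these markers 2 fell, Cidec (log2 fold change -0.19) and Cfd (-0.22), and none rose. The median over the 13 was -0.12, against 0.02 over all genes tested, and -0.05 with the length and GC trend described below removed. Of 12 fibroblast and preadipocyte markers 11 were listed, at 13231 to 15305 CPM in controls and 12864 to 17150 CPM in miR-690oe. Prrx1, Fn1 and Pdgfra were higher (0.32, 0.41 and 0.25) and Vim was lower (-0.17). For comparison, 26.0% of all genes tested were called higher and 17.4% lower. With the trend over transcript length and GC content described below removed, none of these adipocyte and fibroblast marker calls was left, and Dlk1, a preadipocyte marker, was lower (-0.21, limma adjusted p = 0.0328). Of 8 macrophage markers 3 were listed, summing to 24.1 to 27.9 CPM in controls and 21.4 to 24.1 CPM in miR-690oe. Cd14 and Lyz2 fell, though not with that trend removed, Cd68 was not called, and Adgre1, Csf1r, Itgam, Ptprc and Mrc1 were not among the listed genes. Of 7 endothelial and blood cell markers only Egfl7 was listed, at 2.51 to 3.89 CPM over all libraries, and it was not called. In bulk RNA, fewer cells of a type and less RNA per cell cannot be told apart, and the part of these marker differences in the results below was not tested. Nadk, the published target of miR-690, fell to 0.911 of its control level (log2 fold change -0.13, limma adjusted p = 0.0174), and Mir690 itself was not among the listed genes.

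Because the comparison is one of a microRNA, the sequence of miR-690 and its seed matches in the members are shown before the levels. A microRNA pairs with messenger RNA mainly through its seed, bases 2 to 8, and matches in the 3' untranslated region (UTR) are the usual sites. RefSeq (GRCm38.p6) lists a single mature form of 22 nt, on chromosome 16 from 28599940 to 28599961 on the minus strand. It takes bases 83 to 104 of the 109 nt hairpin, that is, its 3' side, whereas the series title speaks of miR-690-5p. The seed is in capitals:
mmu-miR-690: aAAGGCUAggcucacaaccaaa

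A match to all 7 seed bases reads TAGCCTT in the messenger. It was found in the annotated 3' UTR of 11.9% of 10365 listed genes with such a region, searched on the strand of the transcript, and in 3 of the 8 members. The sites are shown as 30 nt of GENCODE M21 transcript, with the match in capitals. Ptpn1 holds 2 of them, Irs1 and Igf1r 1 each, and that of Nadk is given for comparison:
Ptpn1, position 2291 of the 3' UTR, chr2:167978929-167978935, plus strand: ggggaacagtgaTAGCCTTgcctgcagagc
Ptpn1, position 2388 of the 3' UTR, chr2:167979026-167979032, plus strand: tggtgtgtacagTAGCCTTagaggtggctc
Irs1, position 2333 of the 3' UTR, chr1:82235287-82235293, minus strand: gtagtgtaaaggTAGCCTTtcttgttcagc
Igf1r, position 3511 of the 3' UTR, chr7:68229912-68229918, plus strand: gtggttggcgccTAGCCTTccccgtgctct
Nadk, position 90 of the 3' UTR, chr4:155589565-155589571, plus strand: ttctggctgaccTAGCCTTgacaaaccaca

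Among the Ptpn1, Irs1 and Igf1r sites, the second of Ptpn1 is followed by an A, which some site definitions also require. The 3' UTRs differ in length, from 231 nt in Grb14 to 7267 nt in Igf1r, so the members did not have equal room for a match. The shorter match AGCCTT, to seed bases 2 to 7, is contained in the longer one and occurred in 42.6% of the listed genes. It was present in 7 of the 8 members, all but Grb14, with 5 copies in Ptpn1 and 3 in Insr. Of the members with a match to all 7 bases, Irs1 and Igf1r rose in miR-690oe and Ptpn1 was not called. A match is a description of the letters and not a shown site.

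The receptors and substrates were higher in miR-690oe, and the other measured members were not called. Of the 8 members 5 rose, Insr, Igf1r, Igf2r, Irs1 and Irs2, each by 1.39-fold to 1.5-fold, and 0 fell. Shc1, Grb14 and Ptpn1 did not pass the test. Over all 10658 genes tested, 26.0% were called higher and 17.4% lower, and 22.4% had groups that did not overlap with miR-690oe above. The calls come from limma on log2(CPM + 0.5) with a threshold of 0.05 on the adjusted p, and log2 fold changes are on that scale, miR-690oe over control. Calls over all genes were 2773 higher and 1853 lower, or 43.4% in either direction. They became 2207 and 2545 after quantile normalization, and 780 and 960 once the trend with transcript length and GC content described below was removed.

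**Figure D1:**
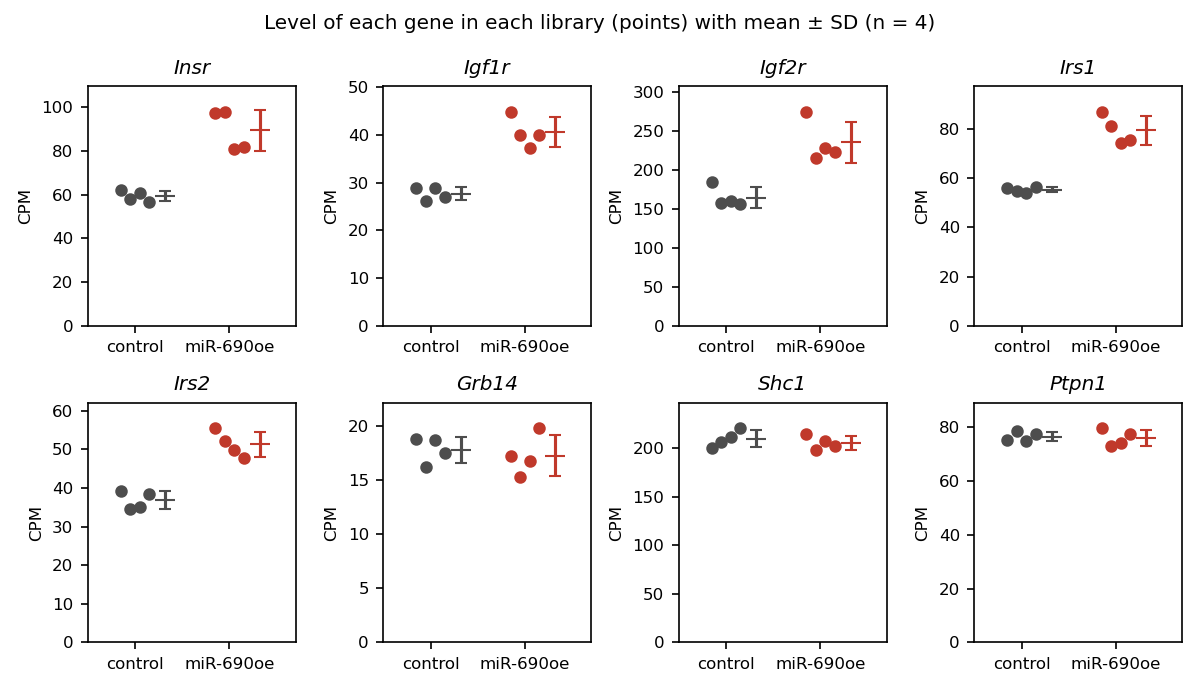
Level in CPM (linear axis from 0) of each of the 8 measured genes in each library, with the mean and SD of each group (n = 4) beside the points. For Insr, Igf1r, Igf2r, Irs1 and Irs2 every miR-690oe library lies above every control library, and for Grb14, Shc1 and Ptpn1 the groups overlap. Over all genes tested, 22.4% had every miR-690oe library above every control.

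Insr, the insulin receptor gene, lies on chromosome 8 from 3122061 to 3279617 on the minus strand (mm10). Its levels in control replicates 1 to 4 were 61.9, 58.0, 60.7 and 56.7 CPM, and in miR-690oe replicates 1 to 4 they were 97.2, 97.8, 80.7 and 81.9 CPM. All miR-690oe libraries were higher than all controls, and within miR-690oe replicates 1 and 2 stood above replicates 3 and 4. The means were 59.3 ± 2.38 CPM and 89.4 ± 9.39 CPM (SD, n = 4 each). The log2 fold change of 0.58 ± 0.064 (SE, limma adjusted p = 7.21e-06) was above that of 99.3% of the genes tested.

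Igf1r, the gene of the IGF1 receptor, is found at chromosome 7 between 67952827 and 68233668 (plus strand). Control replicates 1 to 4 had 28.9, 26.25, 28.9 and 26.9 CPM, and miR-690oe replicates 1 to 4 had 44.9, 40.03, 37.3 and 40.1 CPM. The groups did not overlap, and miR-690oe replicate 1 was the highest library. Igf1r rose 1.45-fold, by 0.54 ± 0.061 on the log2 scale (SE, limma adjusted p = 9.98e-06).

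Igf2r encodes the IGF2 and mannose 6-phosphate receptor and lies on chromosome 17 from 12682406 to 12769664 on the minus strand. Its controls stood at 184.7, 158.0, 160.2 and 156.0 CPM, and its miR-690oe libraries at 275.1, 215.9, 228.0 and 223.7 CPM. Replicate 1 was the highest library of each group, and the groups still did not overlap. Igf2r rose by 0.51 ± 0.069 on the log2 scale (SE, limma adjusted p = 4.25e-05). The change was 0.57 without control replicate 1 and 0.44 without miR-690oe replicate 1, with limma adjusted p of 2.51e-05 and 2.1e-05.

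Irs1 and Irs2 encode the main insulin receptor substrates. Irs1 lies on chromosome 1 from 82233101 to 82291416 on the minus strand, and 2822 of its 9144 exon bases also belong to the antisense gene Gm9747. Irs2 lies on chromosome 8 from 10984681 to 11008458 on the minus strand and shares 162 exon bases with the antisense 9530052E02Rik. Neither antisense gene was among the listed genes, and as the strand setting of the counting is not given, reads from the shared bases cannot be assigned. Irs1 had 56.1, 54.8, 54.0 and 56.2 CPM in controls 1 to 4 and 86.9, 80.9, 74.1 and 75.3 CPM in miR-690oe 1 to 4. Irs2 had 39.2, 34.6, 35.1 and 38.3 CPM in controls and 55.5, 52.0, 49.9 and 47.8 CPM in miR-690oe. For both substrates the lowest miR-690oe library lay above the highest control, and the controls of Irs1 were the tightest of the 5 raised genes, with an SD of 1.05 CPM. Irs1 rose by 0.51 ± 0.053 (SE, limma adjusted p = 4.54e-06) and Irs2 by 0.47 ± 0.059 (SE, limma adjusted p = 2.1e-05) on the log2 scale.

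Shc1, at chromosome 3 between 89418443 and 89430027 (plus strand), encodes an adaptor that links activated receptors to Grb2 and the Sos proteins. Its levels stood at 200.1, 207.0, 212.0 and 220.8 CPM in controls and 214.6, 198.1, 207.5 and 202.5 CPM in miR-690oe. The groups overlapped. Its log2 fold change was -0.03 with a 95% confidence interval from -0.12 to 0.06 (limma adjusted p = 0.616), so the data allow a change of either sign that is smaller than those of the receptors and substrates.

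Grb14, which binds the insulin receptor and inhibits its kinase, is on chromosome 2 from 64912476 to 65024987 on the minus strand. Its controls stood at 18.8, 16.3, 18.8 and 17.6 CPM and its miR-690oe libraries at 17.2, 15.3, 16.8 and 19.8 CPM. Both the lowest and the highest library belonged to miR-690oe. The log2 fold change was -0.05, with a 95% confidence interval from -0.21 to 0.12 (limma adjusted p = 0.638), the widest of the members.

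Ptpn1, which encodes the phosphatase PTP1B, sits at chromosome 2 between 167932057 and 167979385 (plus strand). It had 75.1, 78.6, 74.9 and 77.5 CPM in controls and 79.6, 72.9, 74.3 and 77.5 CPM in miR-690oe. The control range lay inside the miR-690oe range. The log2 fold change was -0.01 with a 95% confidence interval from -0.11 to 0.09 (limma adjusted p = 0.895). This is the member with 2 matches to the whole miR-690 seed, printed above.

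In the authors' deposited table the same 5 genes were listed as higher with a false discovery rate under 0.05, as were 24.7% of all listed genes. Its false discovery rates ran from 1.05e-15 for Irs1 to 1.97e-09 for Igf2r. For Shc1, Grb14 and Ptpn1 the authors' deposited table gave 0.466, 0.558 and 0.719.

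Transcript length moved with these changes. Across 10611 genes with an annotated transcript, the log2 fold change and the log2 transcript length had a Pearson r of 0.72 and a Spearman rho of 0.73, a description over genes that share the same 8 libraries. The 5 members that rose have the longest transcripts of the group, at 9355 nt for Insr, 11409 nt for Igf1r, 8887 nt for Igf2r, 9144 nt for Irs1 and 6323 nt for Irs2. Those of Grb14, Shc1 and Ptpn1 are 1986, 3250 and 4213 nt, against a median of 3096 nt. Of the 1214 genes at least as long as Irs2, 82.5% were called higher, with a median log2 fold change of 0.31. All 5 raised members lay above that median. In single libraries, the log2 deviation of each gene from its own mean over the 8 libraries was fitted on log2 length. Its slope ran from -0.10 to -0.07 per doubling of length in controls. In miR-690oe it ran from 0.03 in replicate 4 to 0.13 in replicate 1. Such slopes compare the libraries with each other and do not give the relation of level to length within a library. The mean log2 deviation of the 5 raised members from their own average was likewise highest in miR-690oe replicate 1, at 0.41, and was 0.18 and 0.19 in replicates 3 and 4. The part of length in the members' changes was not tested beyond the fit that follows.

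**Figure D2:**
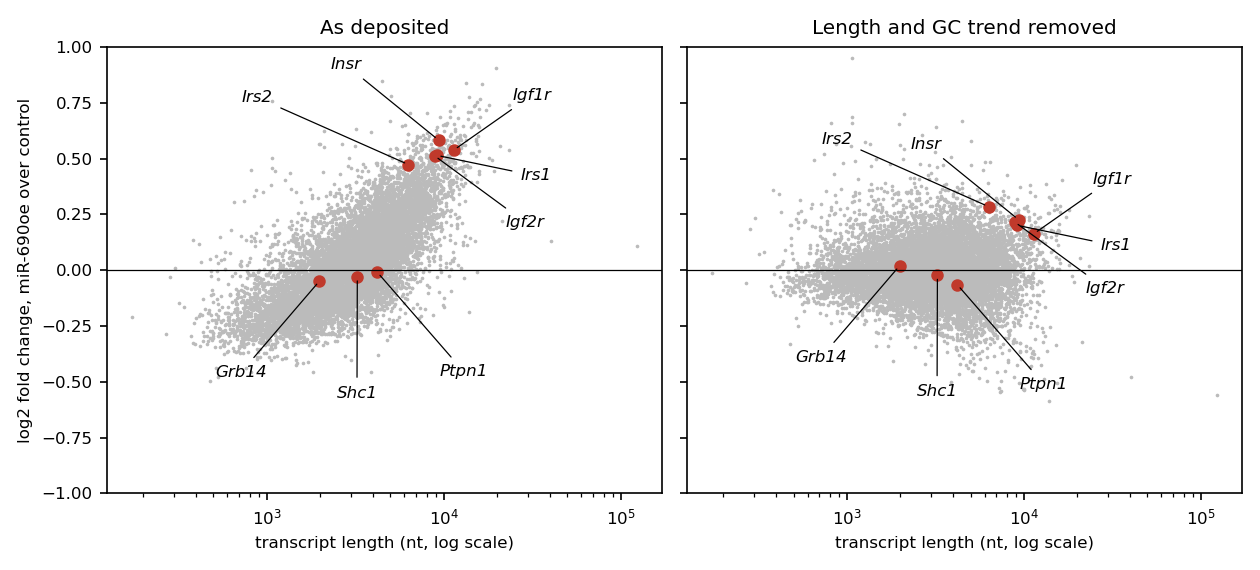
Log2 fold change (miR-690oe over control) against transcript length on a log axis for 10611 genes (grey) and the 8 measured members (red), as deposited on the left and with the spline trend over length and GC content removed on the right. Insr, Igf1r, Igf2r, Irs1 and Irs2 lie above 0 at the long end of both panels, with smaller values in the right one.

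With a spline trend over transcript length and GC content removed in each library, the same 5 members were called higher, at smaller sizes, and 7.35% of all genes and 15.7% of the genes at least as long as Irs2 were called higher. Insr had a log2 fold change of 0.23 ± 0.052 (SE, limma adjusted p = 0.00939) and Irs1 of 0.20 ± 0.039 (SE, limma adjusted p = 0.00324). Irs2 kept the most, at 0.28 ± 0.051 (SE, limma adjusted p = 0.00212), above 98% of the genes. In the same fit Insr was above 95.9% of the genes, Igf2r above 95.3%, Irs1 above 94.5% and Igf1r above 91.2%. Igf2r had 0.22 (limma adjusted p = 0.0134) and Igf1r 0.16 (limma adjusted p = 0.0344). On this scale the groups still did not overlap for Insr, Igf1r, Irs1 and Irs2, while for Igf2r control replicate 1 was above miR-690oe replicate 2. Groups that do not overlap, with miR-690oe higher, made up 8.68% of all genes on this scale.

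The calls of the IGF receptors were the less stable ones in that fit. Igf1r missed the threshold without control replicate 1 (limma adjusted p = 0.0528), 2 (0.0889) or 4 (0.11), and without miR-690oe replicate 1 (0.0644), 2 (0.0619) or 4 (0.1001). It also missed it when GC content was kept (0.0754) or the median annotated transcript length was used (0.0722). Igf2r missed it without control replicate 4 (limma adjusted p = 0.0545). Insr, Irs1 and Irs2 were called in all 12 versions of the trend removal that were run, with log2 fold changes of 0.18 to 0.27, 0.17 to 0.22 and 0.23 to 0.32. Shc1, Grb14 and Ptpn1 were called in none of the 12 versions, and Ptpn1 came closest, at -0.11 with GC content kept (limma adjusted p = 0.0881).

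**Figure D3:**
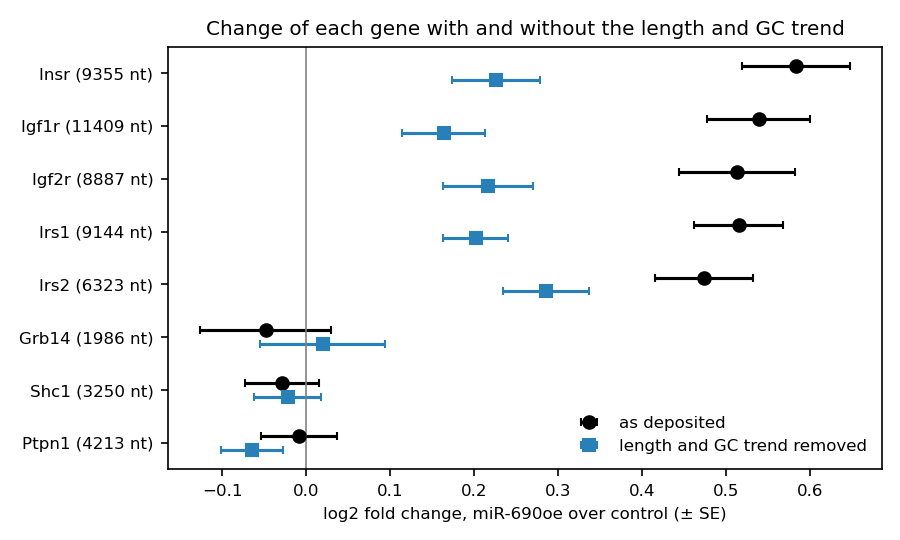
Log2 fold change of each member with its SE, as deposited (black circles) and after trend removal (blue squares), and the transcript length in nt beside each name. The 5 receptors and substrates lie between 0.47 and 0.58 as deposited and between 0.16 and 0.28 after removal, and the other members lie near 0 in both.

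Levels of different genes were compared per kilobase of the longest annotated transcript. In controls Shc1 was the most abundant, at 64.6 ± 2.68 CPM per kb (SD, n = 4). Igf2r and Ptpn1 followed at 18.5 ± 1.51 and 18.2 ± 0.427 CPM per kb, with overlapping libraries. Grb14 stood at 8.99 ± 0.606 CPM per kb. Insr, Irs1 and Irs2 lay close together at 6.34 ± 0.254, 6.04 ± 0.115 and 5.82 ± 0.359 CPM per kb, neighbours whose libraries overlapped. Igf1r was the least abundant, at 2.43 ± 0.119 CPM per kb, below every library of Irs2.

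In miR-690oe the order of the levels as deposited changed in the middle. It was not worked out with the length and GC trend removed. Igf2r, at 26.5 ± 3.01 CPM per kb, stood above Ptpn1 in every library, and Insr, at 9.56 ± 1.00 CPM per kb, overlapped with Grb14 at 8.70 ± 0.954 and Irs1 at 8.67 ± 0.642 CPM per kb. Shc1 remained the highest and Igf1r the lowest member in all 8 libraries.

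Ratios between members within a library do not depend on the scaling of that library, and 6 were compared by a two-sided exact permutation test over the 70 divisions of the libraries, chosen with the changes of the single genes known. The ratios among the raised genes did not pass the test. Insr per kb was 2.61 ± 0.0619 times Igf1r in controls and 2.69 ± 0.207 times in miR-690oe (SD, n = 4, exact p = 0.6, adjusted 0.629). The ratio of Igf2r to Igf1r was 7.62 ± 0.47 and 7.45 ± 0.482 (exact p = 0.629, adjusted 0.629). The ratio of Irs1 to Irs2 was 1.04 ± 0.0473 and 1.07 ± 0.0279 (exact p = 0.286, adjusted 0.429).

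The ratio of Insr to the phosphatase gene Ptpn1 was 0.349 ± 0.0214 in controls and 0.530 ± 0.0590 in miR-690oe (SD, n = 4), a rise of the ratio by 1.51-fold. Insr over Grb14 went from 0.707 ± 0.034 to 1.11 ± 0.21 and Irs1 over Shc1 from 0.0937 ± 0.00428 to 0.137 ± 0.00894. In these 3 ratios the groups did not overlap. Each had an exact p of 0.0286, the smallest that 4 against 4 libraries can give, and an adjusted p of 0.0571 over the 6 ratios, so none passed the threshold. After trend removal, the log2 change of the ratio of Insr to Ptpn1 went from 0.60 to 0.29 and that of Irs1 to Shc1 from 0.55 to 0.22. Both then had an exact p of 0.0286 and an adjusted p of 0.0857. For Insr over Grb14 the log2 change went from 0.64 to 0.21 (exact p = 0.114, adjusted 0.229). None of the 3 passed the threshold there either.

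The genes whose pattern over the 8 libraries was most like that of a member were ranked by Pearson r, among genes with a mean of at least 1 CPM. As the groups stand apart, such an r mostly reflects the difference between them, and all genes share the libraries. For Insr the 3 highest were Trim44, Simc1 and Slc35e2, with r of 0.991 to 0.997. For Igf1r they were Arid1a, Ncoa6 and Trrap, at 0.997 to 0.998, and for Irs1 Dnmt3a and Ash1l were among them, at 0.997 and 0.994. All 8 were higher in miR-690oe, a direction that the choice by likeness to a raised gene all but fixed. Their log2 fold changes were 0.27 to 0.63, and their transcripts measured 4819 to 12479 nt, longer than the median gene. With the trend removed their log2 fold changes ran from 0.01 for Slc35e2 to 0.33 for Arid1a.

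Around the receptors, 119 further genes of the pathway were set out in 5 lists, and 94 of them were measured. Of these, 46 rose and 11 fell, with a median log2 fold change of 0.13, against 0.02 over all genes tested, of which 26.0% were called higher and 17.4% lower. After trend removal 12 were higher and 7 lower, with a median of -0.002, where 7.35% and 9.05% of all genes were called. The members' own median went from 0.49 to 0.18.

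**Figure D4:**
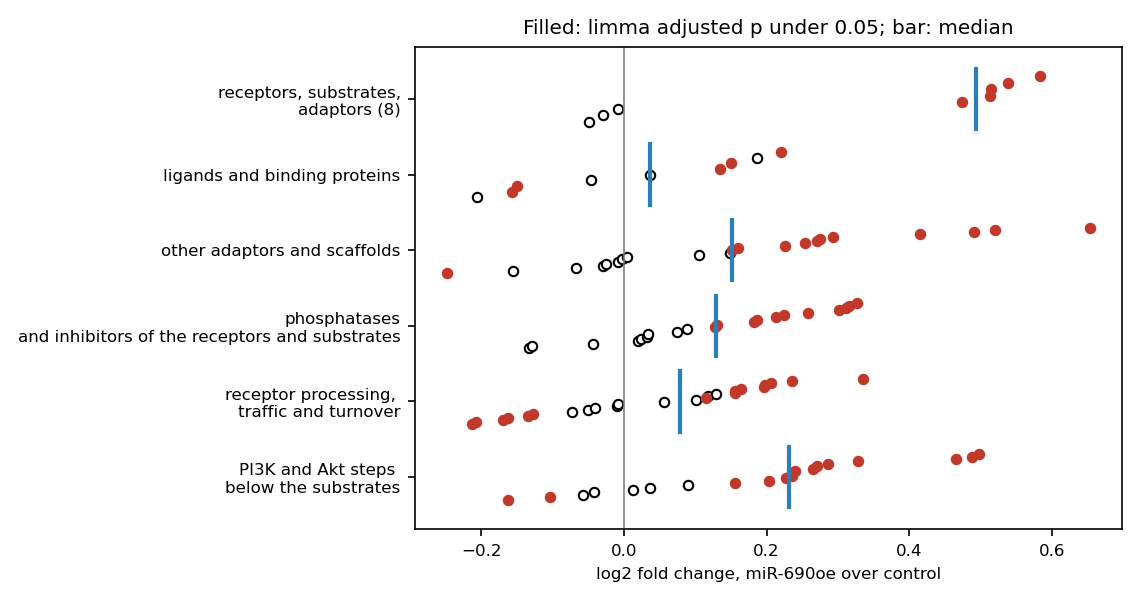
Log2 fold change (miR-690oe over control) of each measured gene in the group of receptors, substrates and adaptors and in the 5 further lists of the pathway. Filled points passed the limma threshold and the vertical bar is the list's median, which runs from 0.04 for ligands and binding proteins to 0.49 for the receptors, substrates and adaptors.

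Of 9 measured genes of ligands and their binding proteins, 3 rose and 2 fell, against 26.0% and 17.4% over all genes. The other 4 were not called. The 3 that rose were Igf2bp1, Igf2bp2 and Igf2bp3, which bind RNA, Igf2 messenger included, and are not binding proteins of the hormone. The log2 fold change of Igf2bp1 was 0.22, that of Igf2bp2 0.15 and that of Igf2bp3, chosen after its values were seen, 0.14 (limma adjusted p = 0.00199, 0.0108 and 0.0324). Igfbp7 and Igfbp4, secreted binding proteins of the IGFs, fell to 0.897 and 0.902 of control (limma adjusted p = 0.0144 and 0.0247). With the trend removed Igfbp4 alone of these was called, at -0.18 (limma adjusted p = 0.0336). For the ligand genes Igf1 and Igf2, picked with their values known, the estimates were 0.19 and 0.04 on the log2 scale (limma adjusted p = 0.0573 and 0.511).

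Among 21 other adaptors and scaffolds 11 rose and 1 fell, against 26.0% and 17.4% over all genes. Sos1 and Sos2, the exchange factors that load Ras with GTP, rose by 0.52 and 0.49 on the log2 scale (limma adjusted p = 3.31e-06 and 2.61e-05). Cbl, a ubiquitin ligase and adaptor, rose by 0.65 (limma adjusted p = 9.23e-05). These 3 were also called with the trend removed, at 0.16, 0.26 and 0.25. In all, 6 of the list were then higher and 1 lower, Nck1, picked with its values known (-0.19, limma adjusted p = 0.0499). The shares over all genes were then 7.35% and 9.05%. Grb2, the adaptor between Shc1 and the Sos proteins, picked with its values known, was at -0.03 (limma adjusted p = 0.616). The gene that fell was Rack1, a scaffold that is also part of the ribosome, at -0.25, and it was not called with the trend removed (limma adjusted p = 0.0789).

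Of 20 phosphatases and other inhibitors that act on the receptors and substrates, 11 rose and 0 fell, against 26.0% and 17.4% over all genes. The receptor phosphatase gene Ptprs rose by 0.33 on the log2 scale, the kinase gene Prkce by 0.32 and the phosphatase gene Ptpn12 by 0.21, and the limma adjusted p of these 3 ran from 0.000326 to 0.00166. With the trend removed, Ptprs (0.12) and Ptpn12 (0.14) were higher and Ptpra was lower (-0.14, limma adjusted p = 0.0308). These were all the calls of the list in that fit, where 7.35% of all genes were higher and 9.05% lower. Ptpra was chosen after its values were seen, as was Ptpn2, the closest relative of Ptpn1, which was at 0.03 (limma adjusted p = 0.645).

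Genes of receptor processing, traffic and turnover went both ways, with 9 higher and 6 lower of 24, against 26.0% and 17.4% over all genes. Cltc, the clathrin heavy chain, had a log2 fold change of 0.34, and Mdm2, a ubiquitin ligase of the IGF1 receptor, 0.23. Atp6ap2, an accessory protein of the proton pump, had 0.20, and Bsg, a membrane glycoprotein, fell by 0.21 on the log2 scale. Their limma adjusted p ran from 4.76e-05 to 0.00174. With the trend removed Mdm2 (0.18) and Atp6ap2 (0.16) were called and Cltc (0.06) and Bsg (-0.07) were not. Fbxw8 (-0.25, limma adjusted p = 0.000473) and Cul7 (-0.15, 0.0274), which belong to a ubiquitin ligase complex and were picked with their values known, were lower there. In that fit 7.35% of all genes were called higher and 9.05% lower.

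Below the substrates, 12 of 20 genes of the phosphoinositide 3-kinase and Akt steps rose and 2 fell, against 26.0% and 17.4% over all genes. Gsk3b, Pik3r1, Rictor and Pdpk1 rose by 0.49, 0.46, 0.50 and 0.33 on the log2 scale, with limma adjusted p of at most 0.000328. With the trend removed Gsk3b (0.16) and Pik3r1 (0.17) were higher, and Rictor (0.12) and Pdpk1 (0.03) were not called. The 2 that fell were Akt2 and Akt1, chosen after their values were seen, at -0.16 and -0.10 (limma adjusted p = 0.0175 and 0.0473). After trend removal Akt2 had -0.24 (limma adjusted p = 0.00418) and Akt1 -0.06 (0.235). Tbc1d1, picked with its values known, was then also lower (-0.16, 0.0109). The list then had 2 genes higher and 2 lower, against 7.35% and 9.05% of all genes. The insulin-regulated glucose transporter gene Slc2a4, picked with its values known, was at 0.01 (limma adjusted p = 0.929).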

How the data were processed

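RNA sequencing libraries of 3T3-L1 adipocytes, 4 control and 4 miR-690oe, were grouped by their titles. Tools named in the submitters' processing notes are Trimmomatic 0.38 and edgeR 3.20.9, with the build mm10. No source used here gives the aligner, the counter or its strand setting. The deposited table is named RPKM, but each library column summed to 1000000 and every value was a whole multiple, within 0.1, of a step per column, so the values deposited by the authors were taken as CPM over the listed genes. The steps gave the read totals. Intervals cover the spread between these libraries, which includes counting error, and the part of counting error in it was not worked out. Per the file headers, the authors' table also holds log2 fold changes, average log2 CPM, a likelihood ratio score LR, p-values and false discovery rates.

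Genes with at least 0.5 CPM in at least 4 of 8 libraries were tested with limma 3.58.1 in R 4.3.3 (lmFit and eBayes with a trend, two-sided, Benjamini-Hochberg over all genes). The design assumed log2 values with a pseudocount of 0.5. The fit of the values as deposited was tested on simulated counts that held no length or GC trend. Removal of that trend was not tested on simulated data. Transcripts, GC content and 3' UTRs came from GENCODE M21 (same build as mm10, 10616 entries matched), with the longest coding transcript of each gene, although these cells may use another. The trend was fitted per library with natural splines of 5 degrees of freedom each. Exact tests used scipy 1.17.1.

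Libraries of a group differed by more than sampling noise. The chi-square per degree of freedom ran from 3.96 to 8.04 between controls and from 9.49 to 22 between miR-690oe libraries. The highest values, from 17 to 22, were those of miR-690oe replicate 1 against the others of its group. The members and lists were chosen with earlier results of these data known. Besides all members, the rule named in each list up to 4 called genes with the lowest adjusted p, Nadk and Mir690, and for Insr, Igf1r and Irs1 the 3 genes with the highest r. Some genes that this rule names are not reported here. Alternatives covered the pseudocount, filter, scaling, weights of libraries, variance trend, a replicate block, length and GC, the threshold and leaving out each library.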

Additional observations from a re-analysis of the deposited data

Results flagged for a closer look

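In 29 named genes, 58 groups of 4 libraries were examined for a library whose gap to the nearest other exceeded Dixon's 95% critical value, which chance gives in about 5% of groups. There were 4 such cases (6.9%). Igf2r stood at 184.7 CPM in control replicate 1, against 156 to 160.2 CPM in the other controls. Cltc stood at 510.1 CPM in the same library, against 460.4 to 466.7 CPM. Gsk3b stood at 123.9 CPM in miR-690oe replicate 4, against 135.6 to 138 CPM in the other libraries of that group. Pdpk1 stood at 92.0 CPM in the same library, against 107.1 to 109.9 CPM.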

How the results depend on the processing

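Under 31 alternative settings the 8 members gave 248 log2 fold changes. Of these 238 stayed on their side of the threshold and 10 lost the call, all after trend removal (9 of Igf1r and 1 of Igf2r). None was newly called and no called value changed sign, whereas the uncalled values of Grb14, Shc1 and Ptpn1 took both signs (Grb14 from -0.12 to 0.08). As deposited, leaving out 1 library gave 5 members called higher each time, 2351 to 2798 genes higher, 1405 to 2013 lower, 40 to 47 pathway genes higher, 8 to 12 lower, and a members' median log2 fold change of 0.4357 to 0.5206 (lowest without miR-690oe replicate 1). That median was 0.4388 after quantile normalization, where 12 pathway genes were lower and 37 higher. At a threshold of 0.01, 1059 genes and 3 pathway genes were lower. After removal of the trend over length and GC content, 780 genes were higher and 960 lower, pathway genes were 12 and 7, and the median was 0.1824. With GC kept these were 826, 1057, 13, 6 and 0.1563, and with the median transcript length 875, 950, 12, 6 and 0.156. These versions, the one with a block and those without 1 library were chosen after seeing the data. Without 1 library and the trend removed, 436 to 749 genes were higher and 570 to 935 lower, pathway genes were 6 to 12 and 3 to 6, the median was 0.1633 to 0.2064, and 3 to 5 members were called (3 without control replicate 4). The cause of these differences was not tested.

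The labels number the replicates of both groups 1 to 4 and name no shared day or culture. The deviations of same-numbered libraries from their group means had r of -0.30, 0.31, -0.10 and -0.33. These signs are mixed and do not settle whether the libraries were paired, and the numbers were not taken as pairs. With a replicate block 2567 genes were higher and 1642 lower and 5 members were called. With the block and the trend removed these were 531, 684 and 4 (Igf1r, limma adjusted p = 0.0804), pathway genes were 8 and 6, and the median was 0.1824. Count tests on whole reads were not run, since the values are deposited as CPM.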
